A study of Mus musculus with 6 samples.

Results

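Toll-like receptors are sensors of microbial molecules, and 7 of their genes (Tlr2, Tlr3, Tlr4, Tlr7, Tlr8, Tlr9 and Tlr13) were read here with 3 genes of accessory proteins (Unc93b1, Cd14 and Ly96). The 10 genes were chosen by symbol from the 16135 genes listed in the deposited tables, and each symbol matched a single row. RNA was sequenced from polyA RNA of common dendritic cell progenitors (CDPs), the bone marrow precursors of dendritic cells. All 6 libraries came from wildtype C57BL/6 mice aged 6 to 8 weeks, and the labels name no treatment. The cells had been flow-sorted by CD115 (Csf1r, the M-CSF receptor) and by Ly6C, a surface antigen of monocytes and their precursors. There were 2 libraries of each subset: CD115-Ly6C- cells, CD115+Ly6C- cells and CD115+Ly6C+ cells.

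Tlr2 and Tlr4 act at the cell surface, where Tlr2 senses bacterial lipoproteins and Tlr4 senses lipopolysaccharide with the help of Cd14, which delivers it, and of Ly96 (MD-2), which binds it. Tlr3, Tlr7, Tlr8, Tlr9 and Tlr13 sense nucleic acids in endosomes, which they reach with the help of the membrane protein Unc93b1. In mature mouse cells Tlr7 and Tlr9 are known from plasmacytoid dendritic cells and B cells, Tlr3 from type 1 conventional dendritic cells, and Tlr2, Tlr4, Tlr8, Tlr13 and Cd14 from monocytes and macrophages.

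Tlr8 and Tlr7 are neighbours in the same orientation on the X chromosome, Tlr8 at 167241123 to 167264329 and Tlr7 at 167303380 to 167330574 of GRCm38, 39050 bases apart. Tlr7 was lowest in CD115+Ly6C+, the one subset in which Tlr8 had reads. The bases before the start of 3 endosomal receptor genes are shown, among those for which a window free of annotated exon was at hand, because Tlr8 had reads in CD115+Ly6C+ alone, Tlr13 was most abundant there, and Tlr9 was near 0 in every subset. Sequences are from RefSeq (GRCm38.p6), 5′ to 3′ on the gene's strand, and capitals mark matches, on either strand, to GAGGAA, a core bound by PU.1 and other ETS factors, and to TTNNGCAA, a C/EBP pattern. The Tlr8 window (chrX:167264330-167264579, minus strand) and the Tlr9 window (chr9:106222348-106222597, plus strand) end at the base before the gene's start, and the Tlr13 window (chrX:106143025-106143203, plus strand) ends where an annotated exon begins.
Tlr8: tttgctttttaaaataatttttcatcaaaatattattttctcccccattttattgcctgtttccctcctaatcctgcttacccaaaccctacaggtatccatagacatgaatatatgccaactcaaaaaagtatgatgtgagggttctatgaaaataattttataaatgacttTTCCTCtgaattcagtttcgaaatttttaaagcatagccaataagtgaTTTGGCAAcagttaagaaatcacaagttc
Tlr13: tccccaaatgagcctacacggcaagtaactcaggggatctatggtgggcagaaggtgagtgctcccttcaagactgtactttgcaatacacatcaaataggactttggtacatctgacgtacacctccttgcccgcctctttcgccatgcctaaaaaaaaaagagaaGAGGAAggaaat
Tlr9: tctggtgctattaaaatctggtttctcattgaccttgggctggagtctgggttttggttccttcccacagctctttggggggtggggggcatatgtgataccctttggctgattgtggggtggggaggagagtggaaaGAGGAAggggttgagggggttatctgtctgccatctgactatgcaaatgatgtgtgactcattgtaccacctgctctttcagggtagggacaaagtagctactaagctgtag

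GAGGAA occurred 1 time in each of these windows, in Tlr8 on the strand opposite the gene (as TTCCTC in the letters shown). It occurs in 23.3% of all 32817 RefSeq promoter windows of 250 bases and in 17.1% of windows of 179 bases, the length shown for Tlr13. TTNNGCAA occurred 1 time, in Tlr8, against 9.6% of windows of that length, and did not overlap the other match. GAAA followed by any 2 bases and GAAA again, a pattern bound by interferon regulatory factors, had 0 matches in the 3 windows (3.0% of windows of 250 bases and 2.2% of those of 179). The Tlr8 window was poor in GC (31.2%) and held 1 CpG, and the Tlr9 window (50.4% GC) held 0, where the median over windows of 250 bases was 6. The Tlr13 window held 4 CpG against a median of 3. A match describes these letters and does not show that a factor binds there.

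Libraries held between 17961541 and 19450329 expected counts, the reads that RSEM assigned to genes, over 13307 to 14127 genes. The CDP-associated genes Flt3, Csf1r, Kit, Irf8, Spi1, Cx3cr1, Tcf4 and Csf2rb all had reads in every library, with summed levels of 4034 to 4620 CPM (counts scaled to library size). Irf8 was the largest part, at means of 2110 (CD115-Ly6C-), 2520 (CD115+Ly6C-) and 2580 CPM (CD115+Ly6C+). Of the 8 genes, CD115+Ly6C+ had 4 called above CD115-Ly6C- (Csf1r, Cx3cr1, Spi1 and Csf2rb) and 3 called below (Flt3, Kit and Tcf4). Csf1r encodes CD115, on which the cells were sorted, so its call is not independent of the sort. Mean Csf1r was 236, 463 and 542 CPM in the order given for Irf8, and mean Kit was 179, 101 and 53.9 CPM. Monocyte markers (12 genes) summed to 573.2 and 824.8 CPM for CD115-Ly6C-, to 2411 and 2402 for CD115+Ly6C-, and to 5989 and 6591 for CD115+Ly6C+. They include Ly6c2, a gene of the Ly6C antigen used in the sort, at means of 51.8, 155 and 1420 CPM in that order. Neutrophil markers (12 genes) set the CD115+Ly6C- libraries apart from each other, at 257.5 CPM in replicate 1 and 954.7 in replicate 2, and reached 4294 and 4054 CPM in CD115+Ly6C+ against 326.6 and 166 in CD115-Ly6C-. Plasmacytoid dendritic cell markers (9 genes, with Klk1 at 0 in 5 libraries) summed to 942.5 and 1027 CPM for CD115-Ly6C-, to 565.3 and 558.6 for CD115+Ly6C-, and to 441.1 and 385.1 for CD115+Ly6C+. T and natural killer cell markers (9 genes, with Cd3e and Cd3g at 0 in 5 libraries) had the same order, from 280.4 and 288.8 CPM for CD115-Ly6C- to 34.56 and 39.46 for CD115+Ly6C+. Lck and Nkg7 held most of each sum, while Gzma, at a mean of 0.97 CPM or less, was highest in CD115+Ly6C+. Macrophage markers summed to 108.1 to 119 CPM in the 6 libraries, with Cd5l and Marco at 0 in all of them. Cd163 held most of that sum, at means of 106 (CD115-Ly6C-), 112 (CD115+Ly6C-) and 99.9 CPM (CD115+Ly6C+). Adgre1 had means of 1.25, 4.51 and 10.3 CPM in the same order, and Mrc1 of 0.748, 0.95 and 3.26. Both were called in the comparison of CD115+Ly6C+ with CD115-Ly6C-, and the 2 other tested macrophage markers were not. B cell markers summed to 109.9 to 143.2 CPM, with Pax5 at 0 in 5 libraries. Most of the B cell sum came from Cd79b and Cd22, whereas Cd79a stood at 13.8 and 11.1 CPM and Ebf1 at 7.4 and 7.66 in CD115-Ly6C-, above the other 4 libraries (at most 1.54 and 0.477). Conventional dendritic cell markers (11 genes, all with reads) summed to 1371 and 1322 CPM (CD115-Ly6C-), 841.3 and 836.2 (CD115+Ly6C-) and 693.7 and 735.4 (CD115+Ly6C+). Flt3, counted also among the CDP genes, was the largest part (mean 1100, 662 and 357 CPM in the same order). Between CD115+Ly6C+ and CD115-Ly6C-, Clec9a, Cd209a, Clec10a and Zbtb46 were called higher in CD115+Ly6C+, and Flt3 and Ccr7 lower. In bulk samples fewer cells of a type and less RNA per cell cannot be told apart. Whether replicate libraries stem from separate mice or sorting runs is not in the labels, so p-values measure the spread between these libraries, which may be technical.

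Together the 7 receptor genes differed less in amount than in make-up. Levels between genes are compared as FPKM, which scales fragments to transcript length and library size. The FPKM of the 7 receptors summed to 21.66 and 23.79 for CD115-Ly6C-, to 15.32 and 17.0 for CD115+Ly6C-, and to 16.94 and 16.41 for CD115+Ly6C+. Tlr7 made up 58.9% and 56.6% of that sum for CD115-Ly6C-, then 30.6% and 28.4% for CD115+Ly6C-, and 6.0% and 4.4% for CD115+Ly6C+. Tlr2 had the reverse order, with 31.9% and 38.0%, then 66.4% and 67.5%, then 82.7% and 86.5%. The share of each of these receptors did not overlap between subsets. The other 5 receptors together never reached the level of Tlr2 in a library, and the most any of them held was 6.8%, for Tlr13 in CD115+Ly6C+ replicate 1, and 6.7%, for Tlr4 in CD115-Ly6C- replicate 1. FPKM rest on the transcript lengths the authors deposited, which for Tlr4 (7891 nucleotides) is longer than the longest GENCODE M21 transcript (4077), and for Tlr8 too (4965 against 3431), so the levels of these receptors relative to the others depend on that annotation.

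**Figure D1:**
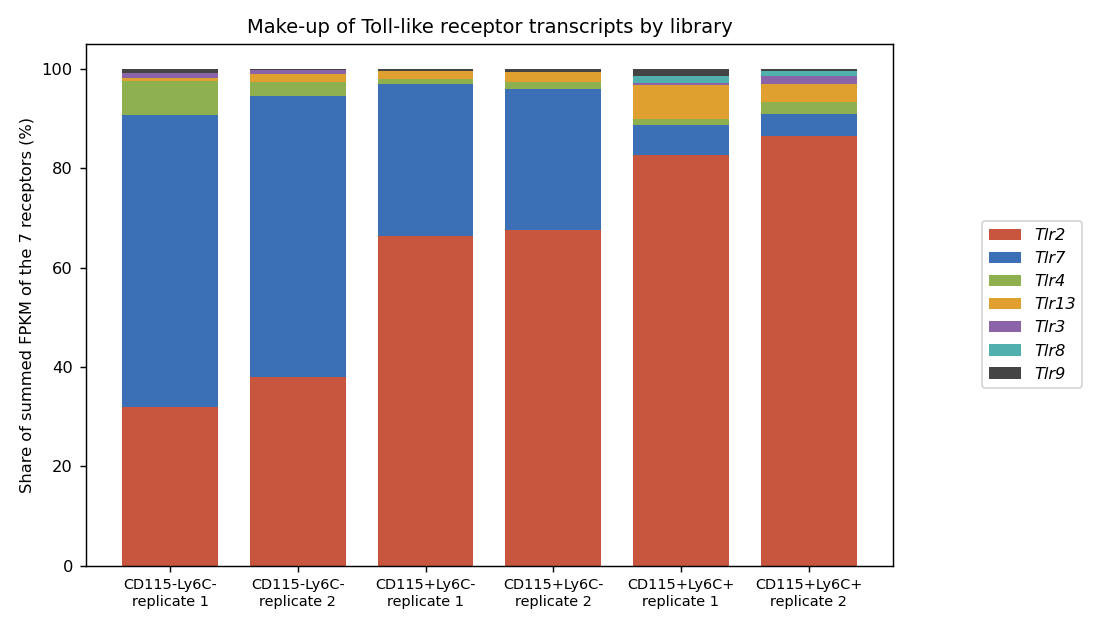
Share of the summed FPKM of the 7 receptor genes (vertical axis, percent) held by each receptor in each of the 6 libraries (horizontal axis, 2 per subset). Tlr7 holds 56.6% to 58.9% in CD115-Ly6C- and 4.4% to 6.0% in CD115+Ly6C+, and Tlr2 holds 31.9% to 38.0% and 82.7% to 86.5%.

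Differences were tested on the counts with edgeR's quasi-likelihood test in a single fit of all 12127 genes that passed a filter on low counts, with Benjamini-Hochberg adjustment over those genes and a threshold of 0.05. All 10 genes passed the filter, Tlr8 only through CD115+Ly6C+ and Tlr3 and Tlr9 with no CD115+Ly6C- library at the filter's level. Tlr8 and Tlr3 had to differ from the subsets without reads, so they are described below and left out of the counts here. Tlr9 had reads in every library and was called in no comparison, and it is kept in the counts. Between CD115+Ly6C+ and CD115-Ly6C-, 5 of the 8 others were called higher and 2 lower in CD115+Ly6C+, where 39.3% of all genes were called (19.2% higher, 20.1% lower). For 7 of the 8 the libraries did not overlap, against 72.6% of all genes. Between CD115+Ly6C+ and CD115+Ly6C-, edgeR called 0 higher and 1 lower, where 9.6% of all genes were called (5.26% higher, 4.34% lower). There, 3 had a higher level at an unadjusted p under 0.05, and DESeq2 called 0 of them. For 6 of the 8 the libraries did not overlap (57.2% of all genes). Between CD115-Ly6C- and CD115+Ly6C-, edgeR called 2 higher and 0 lower, where 15.2% of all genes were called (8.43% higher, 6.78% lower), and for 4 the libraries did not overlap (61.9% of all genes). Of the members called in neither direction in this last comparison, Tlr2, Unc93b1 and Cd14 had an unadjusted p under 0.05, and DESeq2 called Tlr2 and Unc93b1 lower. The 3 comparisons share libraries and are not independent of each other.

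**Figure D2:**
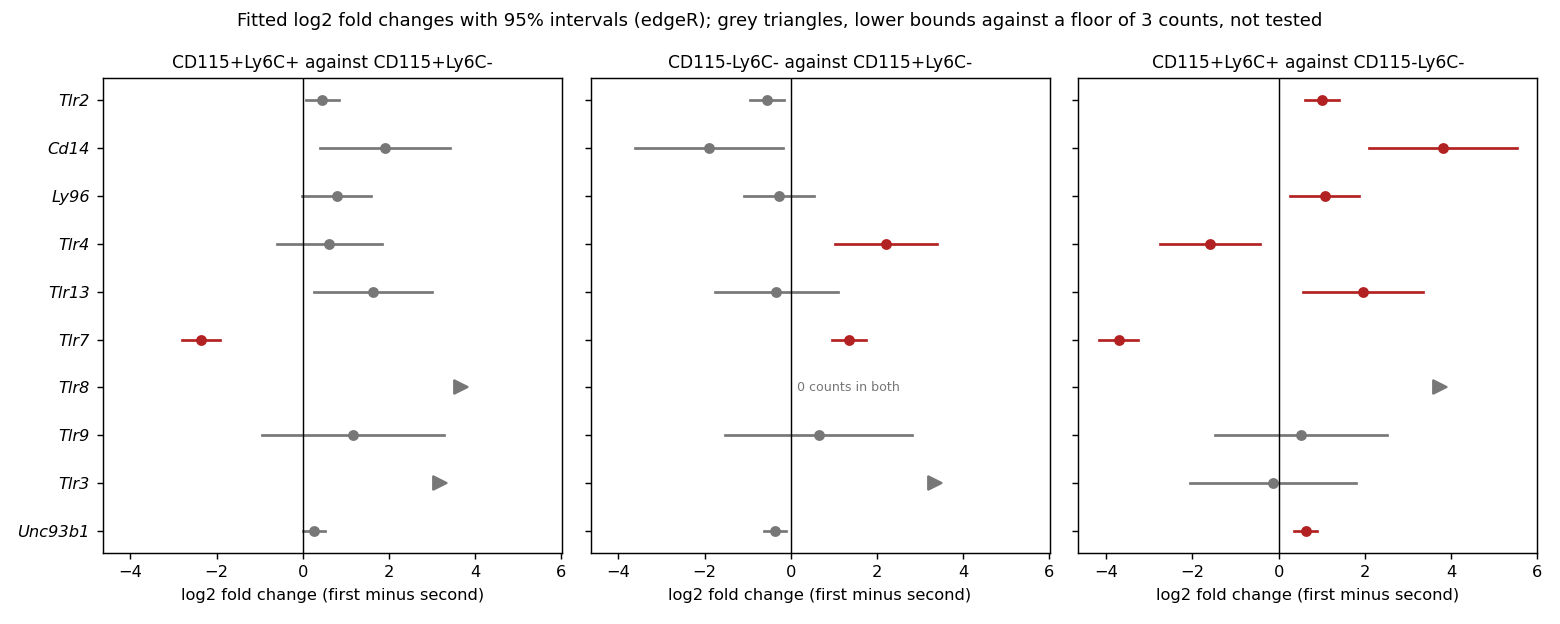
Log2 fold change of each gene (horizontal axis, first subset minus second) in the 3 comparisons, with 95% intervals from the edgeR fit. Red marks an adjusted p under 0.05, and grey triangles mark lower bounds for Tlr8 and Tlr3 where a subset had 0 counts, with no test. Tlr7 is called in each comparison and lies on the other side of 0 from Tlr2 and Cd14.

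Tlr7 (Entrez gene 170743), the sensor of single-stranded RNA, was called in all 3 comparisons. CD115-Ly6C- libraries held 847 and 930 expected counts, CD115+Ly6C- libraries 331 and 332, and CD115+Ly6C+ libraries 70 and 48. The libraries of each subset lay close together and the 3 subsets did not overlap. Its mean FPKM was 13.1 ± 0.495 (CD115-Ly6C-), 4.76 ± 0.099 (CD115+Ly6C-) and 0.875 ± 0.205 (CD115+Ly6C+; SD, n = 2 each). The log2 difference of CD115+Ly6C+ from CD115-Ly6C- was -3.71 (SE 0.20), 13.1-fold (edgeR adjusted p = 1.08e-05). CD115-Ly6C- exceeded CD115+Ly6C- by 1.35 on the log2 scale (SE 0.17), 2.54-fold (edgeR adjusted p = 0.00266), and CD115+Ly6C+ differed from CD115+Ly6C- by -2.36 (SE 0.20, edgeR adjusted p = 6.09e-04). These 3 calls were made under each alternative run, including every fit with a library left out. The summed markers of plasmacytoid dendritic cells and of T and natural killer cells had the same order of subsets as Tlr7. Of the 8 tested plasmacytoid markers, 7 were called lower and Bst2 higher in CD115+Ly6C+ against CD115-Ly6C-. Bst2 stood at 178 (CD115-Ly6C-), 193 (CD115+Ly6C-) and 240 CPM (CD115+Ly6C+), and Spib was lowest in CD115+Ly6C- (2.75 CPM). Cd79a and Ebf1 were also highest in CD115-Ly6C-. Of the 7 tested B cell markers, these 2 were called lower in CD115+Ly6C+ than in CD115-Ly6C-. Cd22 was called higher there (35.9 against 18.3 CPM), and Cd79b was also highest in CD115+Ly6C+ (96 CPM). The B cell sum did not have the order of Tlr7. The conventional dendritic cell sum did have the order of Tlr7, with Flt3 its largest part. Clec9a, Cd209a, Clec10a and Zbtb46 were instead highest in CD115+Ly6C+. The part of these markers in the result was not tested.

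Tlr8 (Entrez gene 170744), also a sensor of RNA and the neighbour of Tlr7 whose upstream bases are given above, had 22 and 13 counts in CD115+Ly6C+ and 0 in the other 4 libraries. Its FPKM in CD115+Ly6C+ was 0.24 and 0.15, below that of Tlr7 in the same libraries (1.02 and 0.73). With the 0 of a subset set to a floor of 3 counts, CD115+Ly6C+ was at least 12.8-fold higher than CD115+Ly6C- and at least 13.5-fold higher than CD115-Ly6C-. These bounds carry no test, since Tlr8 passed the filter only through CD115+Ly6C+, and they leave out the counting error of that subset. Without CD115+Ly6C+ replicate 1 Tlr8 did not pass the filter and had no value. Of the neighbouring pair, Tlr7 alone had reads in the Ly6C- subsets.

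Tlr13 (Entrez gene 279572, chromosome X, 106143275 to 106160493), which recognizes bacterial ribosomal RNA, was highest in CD115+Ly6C+. CD115+Ly6C+ libraries held 84 and 39 counts, CD115+Ly6C- libraries 18 and 25, and CD115-Ly6C- libraries 10 and 26. Both CD115+Ly6C+ libraries were above the other 4, although they differed from each other. CD115+Ly6C+ exceeded CD115-Ly6C- by 1.96 on the log2 scale (SE 0.61), 3.89-fold (edgeR adjusted p = 0.0328). That call ended without CD115+Ly6C+ replicate 1 (log2 fold change 1.37, edgeR adjusted p = 0.219) or CD115-Ly6C- replicate 1 (1.43, 0.171). Against CD115+Ly6C- the difference did not pass (1.62, 95% interval 0.26 to 2.99, edgeR adjusted p = 0.12). CD115+Ly6C- and CD115-Ly6C- overlapped, at 0.24 and 0.34 against 0.14 and 0.36 FPKM.

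Tlr9 (Entrez gene 81897, chromosome 9, 106222598 to 106226876), the sensor of unmethylated CpG DNA, was near 0 throughout. CD115-Ly6C- libraries held 10 and 5 counts, CD115+Ly6C- libraries 3 and 6, and CD115+Ly6C+ libraries 15 and 4, or 0.05 to 0.24 FPKM, and the subsets overlapped. No difference was detectable at this depth, with edgeR adjusted p of 0.449 to 0.68 in the 3 comparisons and intervals of the log2 difference of -1.52 to 2.81 (CD115-Ly6C- against CD115+Ly6C-) and -0.953 to 3.29 (CD115+Ly6C+ against CD115+Ly6C-). In CD115-Ly6C-, where the sum of plasmacytoid dendritic cell markers was highest, Tlr9 stood at 0.17 and 0.08 FPKM and Tlr7 at 12.76 and 13.46.

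Tlr3 (Entrez gene 142980, chromosome 8, 45395665 to 45411075), the sensor of double-stranded RNA, had 16 counts in each CD115-Ly6C- library, 5 and 20 in the CD115+Ly6C+ libraries and 0 in both CD115+Ly6C- libraries. By the same floor, CD115-Ly6C- was at least 10.1-fold and CD115+Ly6C+ at least 9.12-fold higher than CD115+Ly6C-. These bounds take in the floor, but neither the counting error of the higher subset nor the spread between libraries, and carry no test. Replicate 2 held 20 of the 25 CD115+Ly6C+ counts. Against the same floor, its level alone was 15.1-fold higher and that of replicate 1, from 5 counts, 3.52-fold higher. CD115+Ly6C+ and CD115-Ly6C- overlapped (log2 fold change -0.13, 95% interval -2.06 to 1.81, edgeR adjusted p = 0.922). Tlr3 shares 381 bases of exon with Gm45542, a transcript annotated on the other strand, and the sources used here do not give whether the counting used strand, so reads there cannot be told apart.

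Unc93b1 (Entrez gene 54445, chromosome 19, 3935158 to 3949340), which carries the endosomal receptors out of the endoplasmic reticulum, was far more abundant per length than any of the receptors. CD115-Ly6C- libraries stood at 250.43 and 271.45 FPKM, CD115+Ly6C- libraries at 285.36 and 335.09, and CD115+Ly6C+ libraries at 357.26 and 349.91, above 97.1% to 97.6% of the genes with an FPKM above 0. The order of the subsets was the reverse of that for Tlr7. CD115+Ly6C+ exceeded CD115-Ly6C- by 0.63 on the log2 scale (SE 0.12), 1.55-fold (edgeR adjusted p = 0.00337), a call made under each alternative run. CD115+Ly6C- lay between them without overlap, and neither step passed the test: CD115+Ly6C+ differed from it by 0.26 (95% interval -7.43e-04 to 0.523, edgeR adjusted p = 0.18) and CD115-Ly6C- by -0.37 (95% interval -0.631 to -0.107, edgeR adjusted p = 0.0633). The second step passed with DESeq2 (adjusted p = 0.0141) and with no filter on low counts (edgeR adjusted p = 0.0327).

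**Figure D3:**
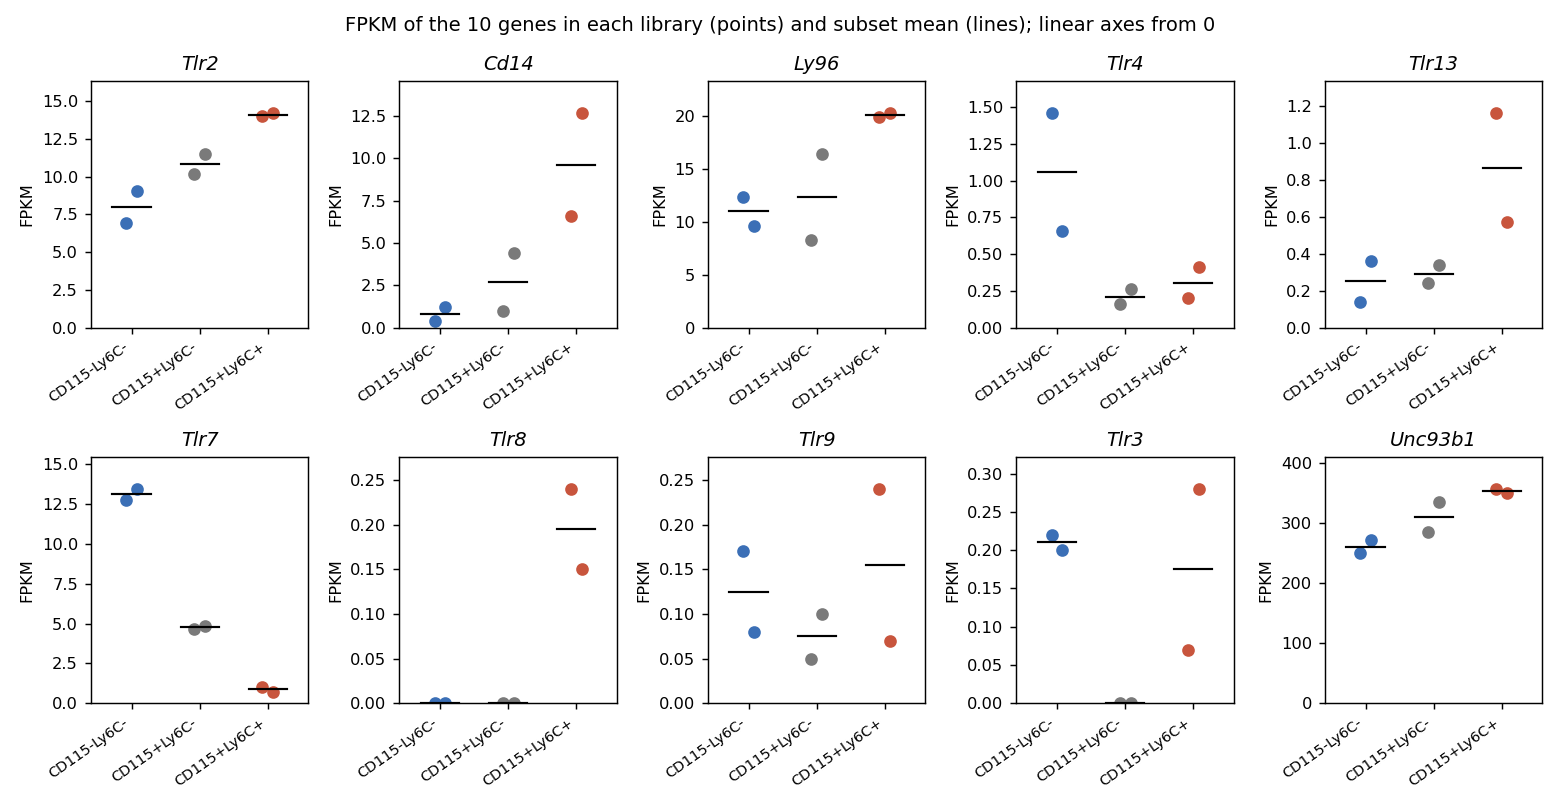
FPKM of each of the 10 genes (vertical axes, linear, each with its own range) in the 2 libraries of each subset (points), with the subset mean (lines). Tlr7 and Tlr4 are highest in CD115-Ly6C-, while Tlr2, Cd14, Ly96, Tlr13, Tlr8 and Unc93b1 are highest in CD115+Ly6C+.

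Of the surface receptors, Tlr2 (Entrez gene 24088, chromosome 3, 83836272 to 83841824) had the higher FPKM in every library. CD115-Ly6C- libraries held 340 and 462 counts, CD115+Ly6C- libraries 533 and 587, and CD115+Ly6C+ libraries 712 and 689. As FPKM these were 6.91 and 9.03, then 10.18 and 11.47, then 14.01 and 14.2, and the 3 subsets did not overlap. CD115+Ly6C+ exceeded CD115-Ly6C- by a log2 difference of 1.013 (SE 0.17), 2.02-fold (edgeR adjusted p = 0.00236), under each alternative run. The differences from CD115+Ly6C- did not pass, at 0.45 for CD115+Ly6C+ (95% interval 0.0663 to 0.841, edgeR adjusted p = 0.124) and -0.56 for CD115-Ly6C- (95% interval -0.952 to -0.167, edgeR adjusted p = 0.0614). The latter passed with DESeq2 (adjusted p = 0.0352), with no filter (edgeR adjusted p = 0.0321) and without CD115-Ly6C- replicate 2 (0.0414).

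Tlr4 (Entrez gene 21898, chromosome 4, 66827551 to 66846581), the signaling receptor for lipopolysaccharide, stood highest in the subset where Cd14 and Tlr2 were lowest. CD115-Ly6C- libraries held 206 and 97 counts, CD115+Ly6C- libraries 24 and 38, and CD115+Ly6C+ libraries 29 and 57. Both CD115-Ly6C- libraries were above the other 4, but they differed from each other, and the 2 CD115+ subsets overlapped. CD115-Ly6C- exceeded CD115+Ly6C- by 2.21 on the log2 scale (SE 0.52), 4.63-fold (edgeR adjusted p = 0.0267). The log2 difference of CD115+Ly6C+ from CD115-Ly6C- was -1.60 (SE 0.51), 3.02-fold (edgeR adjusted p = 0.0356). Without CD115-Ly6C- replicate 1 these were 1.56 and -0.95 and neither passed (edgeR adjusted p = 0.199 and 0.275). The first was also lost without either CD115+Ly6C- library (0.168 and 0.0736), and the second without CD115+Ly6C+ replicate 1 (0.164) or with the length trend removed (0.106).

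Cd14 (Entrez gene 12475, chromosome 18), the co-receptor that hands lipopolysaccharide to the receptor complex, was highest in CD115+Ly6C+. CD115-Ly6C- libraries held 10 and 34 counts, CD115+Ly6C- libraries 29 and 126, and CD115+Ly6C+ libraries 187 and 343. Both CD115+Ly6C+ libraries were above the rest, and the other 2 subsets overlapped. CD115+Ly6C+ exceeded CD115-Ly6C- by 3.81 on the log2 scale (SE 0.75), 14.0-fold (edgeR adjusted p = 0.00483), and this was called under each alternative run. Its size ranged from 3.18 without CD115-Ly6C- replicate 1 to 4.92 without replicate 2. The difference of CD115+Ly6C+ from CD115+Ly6C- was 1.91 (95% interval 0.402 to 3.43) and did not pass (edgeR adjusted p = 0.103), though it did with no filter (0.00494). Without CD115+Ly6C- replicate 2 it was 3.33 (edgeR adjusted p = 0.0592) and without replicate 1 it was 1.21 (0.343). Replicate 2 held more Cd14 counts than replicate 1 in every subset. Neutrophil marker sums in replicates 1 and 2 were 326.6 and 166 CPM (CD115-Ly6C-), 257.5 and 954.7 (CD115+Ly6C-), and 4294 and 4054 (CD115+Ly6C+), and monocyte marker sums were 573.2 and 824.8, 2411 and 2402, and 5989 and 6591 in the same order. Their part in the Cd14 level was not tested.

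Ly96 (Entrez gene 17087, chromosome 1, 16688456 to 16709605), the lipopolysaccharide-binding partner of Tlr4, was also highest in CD115+Ly6C+. CD115-Ly6C- libraries held 96 and 78 counts, CD115+Ly6C- libraries 67 and 133, and CD115+Ly6C+ libraries 160 and 156. As with Cd14, replicate 2 of CD115+Ly6C- was above replicate 1, and together they spanned the range of CD115-Ly6C-. CD115+Ly6C+ exceeded CD115-Ly6C- by 1.07 on the log2 scale (SE 0.35), 2.09-fold (edgeR adjusted p = 0.0417). The call ended without any single library of these 2 subsets (0.0787 to 0.158), with library totals as the scale (log2 0.87, 0.0851) and with the length trend removed (log2 0.48, 0.305). Its FPKM was 8.22 to 20.23 over the 6 libraries, where that of Tlr4 was 0.16 to 1.46.

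The genes with the most similar pattern were looked up by Pearson's r of log2 CPM over the 6 libraries, among 11288 tested genes (predicted, Rik and unnamed gene models and the members left out), given here as a description of libraries that fall into 3 subsets. Among the closest to Tlr7 were Jakmip1 and Rab37 (r = 0.999 each). CD115-Ly6C- libraries had 109 and 104 CPM of Rab37, CD115+Ly6C- libraries 57.2 and 58.7, and CD115+Ly6C+ libraries 23.6 and 19.9. Closest to Tlr2 were Rnpep, Ifngr2, a chain of the interferon gamma receptor, and Sod1, and closest to Unc93b1 were Zbtb18, Syngr2 and Carmil1. Closest to Cd14 were Bad, Fcgr1, the high-affinity receptor for IgG, and Mpg. Fcgr1 differed between the CD115+Ly6C- replicates as Cd14 did, at 0.367 and 1.01 CPM. Closest to Ly96 was Olfm4, a neutrophil granule gene, with 0.105 and 2.97 CPM in those same replicates and 9.03 and 9.88 CPM in CD115+Ly6C+. For Tlr3 the second closest was Usp18, an interferon-induced protease that removes ISG15, with 40.3 and 39.2 CPM (CD115-Ly6C-), 30.8 and 40.4 CPM (CD115+Ly6C+) and 20 and 19.7 CPM (CD115+Ly6C-).

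The other genes of the pathway were read in 8 lists of 110 genes, of which 98 were tested. Of these, 21 were higher and 22 lower in CD115+Ly6C+ against CD115-Ly6C- (median log2 fold change 0.04, against -0.03 over all genes), and 43 of 98 called is close to the background of 39.3%. In CD115-Ly6C- against CD115+Ly6C-, 11 were higher and 9 lower (median 0.10 against 0.02), beside 8.43% and 6.78% of all genes. In CD115+Ly6C+ against CD115+Ly6C-, edgeR called 7 higher and 0 lower (median 0.13 against -0.01), where it called 9.6% of all genes (5.26% higher, 4.34% lower). At an unadjusted edgeR p under 0.05, 19 were higher and 4 lower, and the share of all genes at that level is not given here. DESeq2 called 13 higher and 3 lower, where it called 1024 higher and 788 lower of all 12127 genes. At least 1 alternative ended 24 of the 43 calls, 16 of the 20 and 6 of the 7. Cd40 is among the 21 and the 7, and Il10 is among the 22. Each passed the filter only through the subset where it was high, so their calls are not read as results. The counts by list below stand beside 19.2% of all genes higher and 20.1% lower, and nothing particular to a list is read from them.

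**Figure D4:**
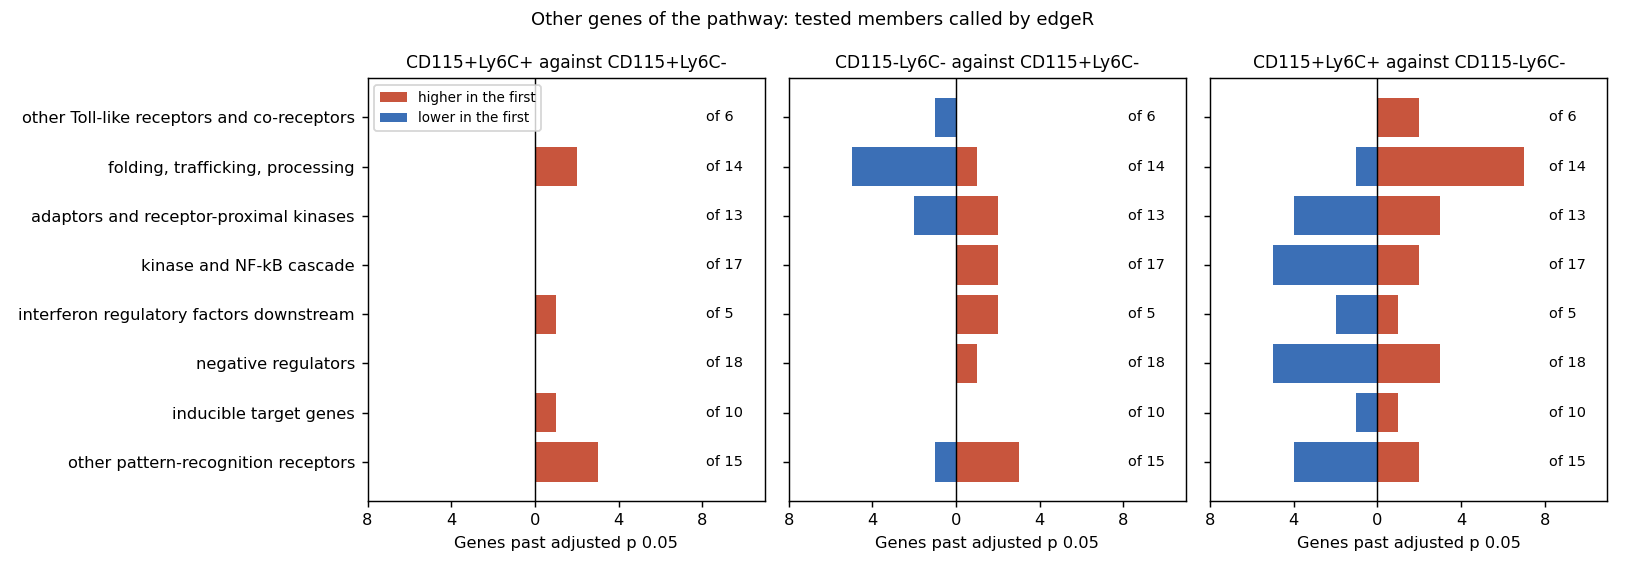
Number of tested genes called higher (red, to the right) and lower (blue, to the left) in the first subset of each comparison, for the 8 lists of other pathway genes, with the number tested beside each bar. Folding, trafficking and processing genes have 7 of 14 higher and 1 lower in CD115+Ly6C+ against CD115-Ly6C-.

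The values that follow are mean CPM, and comparisons are of CD115+Ly6C+ with CD115-Ly6C- unless another subset is named. Among the other receptors, Tlr1, which pairs with Tlr2, was higher at 14.3 against 2.79 CPM (log2 fold change 2.35, SE 0.53, edgeR adjusted p = 0.00853), and this call ended without CD115+Ly6C+ replicate 2 (0.0523). Its counts were in part not whole, as RSEM splits reads between similar genes. Ly86 (MD-1), a relative of Ly96 that partners Cd180, was higher at 570.0 against 273 CPM (edgeR adjusted p = 4.72e-04). CD115+Ly6C-, at 440.5 CPM, was also above CD115-Ly6C- (edgeR adjusted p = 0.0115), which ended without CD115+Ly6C- replicate 2 (0.0648) or CD115-Ly6C- replicate 1 (0.0968). Tlr5, the receptor of flagellin, had 25 counts over the 6 libraries, and Tlr11 had 3, all in CD115+Ly6C+ replicate 2.

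Of the genes that fold, move or process the receptors, 7 of 14 were higher and 1 lower, and 4 of the 7 (Lrrc59, Lgmn, Rab7b and Tmed7) lost their call under at least 1 alternative. Ifi30, a lysosomal thiol reductase, was higher at 167 against 20.7 CPM, with 43.7 CPM in CD115+Ly6C-, and was called in all 3 comparisons under each alternative run. Ctss, which encodes cathepsin S, a protease of endosomes, was higher at 523 against 272 CPM (log2 fold change 0.94, SE 0.14, edgeR adjusted p = 0.00142). Hsp90b1 (gp96), the chaperone of Toll-like receptors, was higher at 1249 against 879 CPM (0.51, SE 0.10, edgeR adjusted p = 0.00535). Ctsl, cathepsin L, was lower at 21.1 against 29.9 CPM (edgeR adjusted p = 0.0483), a call lost with DESeq2 (0.0513), with RLE scaling (0.0516), with the length trend removed (0.154) and without any single library of these subsets (edgeR adjusted p = 0.109 to 0.169).

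Of the adaptors and proximal kinases, 3 of 13 were higher and 4 lower. The higher ones were the sorting adaptor of Tlr4, Ticam2 (TRAM), at 97.4 against 64.3 CPM (0.60, SE 0.11, edgeR adjusted p = 0.00324), Tirap (MAL), the sorting adaptor of Tlr2 and Tlr4, at 23.8 against 15.6 CPM (edgeR adjusted p = 0.0213), and Myd88, the adaptor shared by most of the receptors, at 85.6 against 67 CPM (edgeR adjusted p = 0.0353). Tirap and Myd88 each lost their call with library totals (0.0727 and 0.26) and without CD115+Ly6C+ replicate 2 (0.113 and 0.143) or CD115-Ly6C- replicate 1 (0.142 and 0.198). Myd88 lost it also without the other library of each subset (0.0725 and 0.0917) and with the length trend removed (0.0809). The lower ones included Pik3ap1 (BCAP), which links the receptors to PI3 kinase, at 24.2 against 50.7 CPM (-1.07, SE 0.15, edgeR adjusted p = 8.77e-04), and the kinase Syk at 68 against 119 CPM (-0.81, SE 0.14, edgeR adjusted p = 0.00273). Traf6, the ubiquitin ligase of the pathway, was lower at 45.8 against 70.4 CPM (edgeR adjusted p = 0.00343) but not called with the length trend removed (0.0813). Btk was lower at 120.3 against 162 CPM (edgeR adjusted p = 0.0276) but not called without CD115+Ly6C+ replicate 2 (0.157) or CD115-Ly6C- replicate 1 (0.169).

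Of the 5 interferon regulatory factors, 1 was higher and 2 were lower. Irf7, which drives type I interferon after Tlr7 and Tlr9, had mean CPM of 30.02 ± 4.31 (CD115-Ly6C-), 7.74 ± 2.04 (CD115+Ly6C-) and 9.71 ± 1.67 (CD115+Ly6C+; SD, n = 2 each). CD115-Ly6C- exceeded CD115+Ly6C- by a log2 difference of 1.955 (SE 0.24, edgeR adjusted p = 0.00235), and CD115+Ly6C+ was lower than CD115-Ly6C- (-1.63, SE 0.24, edgeR adjusted p = 0.00115), under each alternative run. Irf5, which drives inflammatory cytokines, had 45.7 ± 4.09, 50.7 ± 15.4 and 104 ± 0.703 CPM in the same order (SD, n = 2 each). CD115+Ly6C+ exceeded CD115-Ly6C- (1.19, SE 0.19, edgeR adjusted p = 0.00187) under each alternative run, and CD115+Ly6C- (1.04, SE 0.19, edgeR adjusted p = 0.0161). The latter ended without CD115+Ly6C- replicate 1 and without either library of CD115+Ly6C+ (0.0603 to 0.069). Irf1 was highest in CD115-Ly6C-, at 97.8 CPM against 60.3 in CD115+Ly6C- (edgeR adjusted p = 0.0185) and 57 in CD115+Ly6C+ (edgeR adjusted p = 0.00424), the first of which ended without CD115+Ly6C- replicate 1 (0.123) or CD115-Ly6C- replicate 1 (0.117).

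In the kinase and NF-kB cascade, 2 of 17 genes were higher and 5 lower. Rel, a subunit of NF-kB, was lower at 6.41 against 13.4 CPM (log2 fold change -1.07, SE 0.24, edgeR adjusted p = 0.00802). Rela, another, was lower at 64.2 against 93.7 CPM (-0.55, SE 0.13, edgeR adjusted p = 0.0102), and lost its call without CD115+Ly6C+ replicate 2 (0.0661) or CD115-Ly6C- replicate 1 (0.0668). Chuk, which encodes the kinase IKK alpha, was higher at 121 against 50.9 CPM (1.245, SE 0.25, edgeR adjusted p = 0.0056). Of 18 negative regulators, 3 were higher and 5 lower. The lower ones included Tnfaip3 (A20), a deubiquitinase that damps the pathway, at 10.7 against 27.4 CPM (-1.36, SE 0.29, edgeR adjusted p = 0.00707) and Sigirr at 45.9 against 74.2 CPM (-0.69, SE 0.15, edgeR adjusted p = 0.00805).

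Of 16 genes that Toll-like receptor signals can induce, 14 had reads, 10 were tested, and 1 was higher and 1 lower. These were Cd40 and Il10, which each passed the filter only through the subset where they were high and are given as counts. Cd40, a co-stimulatory receptor, had 118 counts in all for CD115+Ly6C+, 2 for CD115-Ly6C- and 7 for CD115+Ly6C-. Il10 had 3 for CD115+Ly6C+ and 93 for CD115-Ly6C-. Il6 had 11 counts over the 6 libraries. Tnf had 7.02 ± 2.74 (CD115-Ly6C-), 5.63 ± 2.77 (CD115+Ly6C-) and 7.54 ± 1.44 CPM (CD115+Ly6C+; SD, n = 2 each), and the subsets overlapped. Other genes of the list were more abundant. In the same order, Ccl3 had 92.8 ± 46.5, 49.8 ± 28.7 and 59.6 ± 30.7 CPM. Ccl4 had 110 ± 74.1, 52.6 ± 45.7 and 45.3 ± 41 CPM, and neither gene was called in a comparison.

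Of 15 receptors of other sensing families, 2 were higher and 4 lower. Ddx58 (RIG-I), a cytosolic sensor of viral RNA, had mean CPM of 25.4 ± 5.83 (CD115-Ly6C-), 2.98 ± 1.13 (CD115+Ly6C-) and 1.17 ± 0.553 (CD115+Ly6C+; SD, n = 2 each), the order seen for Tlr7. CD115-Ly6C- exceeded CD115+Ly6C- by a log2 difference of 3.09 (SE 0.36, edgeR adjusted p = 0.00186), and CD115+Ly6C+ was lower than CD115-Ly6C- (-4.42, SE 0.40, edgeR adjusted p = 1.16e-04), under each alternative run. Clec7a (Dectin-1), a receptor for fungal glucans, ran the other way, with 3.79 (CD115-Ly6C-), 26.6 (CD115+Ly6C-) and 115 CPM (CD115+Ly6C+). It was called in all 3 comparisons (edgeR adjusted p = 4.37e-05 to 0.0057), of which the one between the CD115+ subsets ended without CD115+Ly6C- replicate 1 (0.0687). Naip2, part of an inflammasome sensor, was higher at 11.98 against 2.97 CPM (edgeR adjusted p = 0.00382).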

How the data were processed

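RNA libraries of 3 sorted progenitor subsets, 2 each, were read from 6 sample tables. Per the submitters' processing notes, the authors aligned reads to mm10 with Bowtie2 and quantified them with RSEM (versions: not given in the sources used here). Per the file headers, each deposited table holds expected counts, which are estimated, and FPKM, with a gene length in nucleotides. A gene without reads is missing from a table and was taken as 0. All 60 expected counts of the 10 genes were whole (tolerance 1e-06). FPKM in the series-wide file that the authors also deposited equal those of the sample tables.

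Expected counts were rounded and tested with edgeR 4.0.16 (R 4.3.3) by quasi-likelihood F test, after filterByExpr (minimum count 10, minimum total 15) and TMM scaling, with all 6 libraries in 1 fit and 3 residual degrees of freedom. The 10 genes and all lists were chosen with earlier results of these data known. CPM are TMM-scaled, the SE is the log2 fold change over the square root of F, and 95% intervals use the fit's t distribution. Gene starts and ends come from RefSeq (GRCm38.p6, the assembly of mm10), exon overlaps from GENCODE M21. Named genes were all members, and of each pathway list the called genes with the smallest adjusted p, at most 4 in a direction. The text names some of these, with other Toll-like receptors near 0. Il6, Tnf, Ccl3 and Ccl4 were chosen after their values were seen. For each member called in a comparison, the 3 genes of highest r were looked up; some of these are not reported here. Alternatives were DESeq2 1.42.0, RLE scaling, library totals, no filter, a replicate block, only the 2 subsets compared, a length trend removed, and each library left out in turn. Libraries of a subset were not copies (chi-square per degree of freedom 19.3 to 21.4). Without molecular identifiers in the labels, floors cover only the counting error of the 0, not that of the higher count.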

Additional observations from a re-analysis of the deposited data

How the results depend on the processing

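Of 383 results for a single member under 1 of 13 alternatives, 341 kept their side of the threshold, 33 fell short of it and 9 newly passed it. These and the counts of members here are over all 10, Tlr3 and Tlr8 included. No called value changed sign under these alternatives. Of these members, Tlr7 in all 3 comparisons and Tlr2, Unc93b1 and Cd14 in CD115+Ly6C+ against CD115-Ly6C- passed under every alternative. The order of the subset means was the same in FPKM and CPM for all 10 genes. The number of members called in CD115-Ly6C- against CD115+Ly6C- was 3, where 1844 of all 12127 genes were called. This number was 5 with DESeq2 (2430 of 12127 genes) and 6 with no filter (2496 of 16108 genes). With 1 library left out, where a lone library is assumed to vary like the others, it was 1 to 3 (1 without CD115-Ly6C- replicate 1 and without each of the CD115+Ly6C- libraries). Members called in CD115+Ly6C+ against CD115+Ly6C- were 1 to 2 of 3 (1 without any single library of these subsets), and in CD115+Ly6C+ against CD115-Ly6C- 4 to 8 of 8 (4 without CD115+Ly6C+ replicate 1 or CD115-Ly6C- replicate 1). Of all genes, 1164 were called in CD115+Ly6C+ against CD115+Ly6C-, and 1812 with DESeq2, 1810 with no filter and 711 with the length trend removed. With 1 library left out the counts of all genes were 220 to 1139, 485 to 1744 (of 1844, CD115-Ly6C- against CD115+Ly6C-) and 2983 to 4632 (of 4768, CD115+Ly6C+ against CD115-Ly6C-). Called pathway genes in CD115+Ly6C+ against CD115+Ly6C- numbered 7, Cd40 included, and 15 with no filter and 16 with DESeq2. Library totals moved the median log2 fold change of all genes to -0.08, 0.14 and -0.22 in the order above, and the calls from 638 higher and 526 lower to 485 and 777, from 1022 and 822 to 1383 and 479, and from 2333 and 2435 to 1518 and 3504. With the replicate block, 965, 1503 and 4550 genes and 2, 4 and 7 members were called. The numbers do not show pairing: the differences between replicates correlated across genes by 0, -0.01 and 0.15 between subsets. In the block, Cd14 passed against CD115+Ly6C- in both other subsets (edgeR adjusted p = 0.0129 and 0.0251), and the call of Ly96 in CD115+Ly6C+ against CD115-Ly6C- (0.0509) was lost. Where a member failed the filter of a fit it had no value (Tlr8 without CD115+Ly6C+ replicate 1; Tlr3, Tlr8 or Tlr9 in some fits of only 2 subsets). Depth limits Tlr3, Tlr8 and Tlr9, which had 57, 35 and 43 counts over all libraries.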
